A study of Homo sapiens with 56 samples.

Results

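The nuclear genes for mitochondrial ribosomal proteins are described here in 2 human acute myeloid leukaemia cell lines exposed to PMR-116 or CX-5461, both of which inhibit transcription by RNA polymerase I, the enzyme that makes cytosolic ribosomal RNA. Members were taken by symbol: every gene shared by both count tables that is named MRPL or MRPS followed by a number, with or without a letter A to C, and that averaged at least 5 CPM in either line. CPM are counts on a common library size after scaling the libraries by the trimmed mean of M values (TMM). Of the 59081 symbols that both hold, 78 matched, and 78 also met the level and passed the filter on low counts in both lines, so no member was lost on the way to a test. The lines were Mv4;11 (batch 1 in the labels, 3 libraries per group) and KG-1 (batch 2, 4 libraries per group). Cells received PMR-116 or CX-5461, each at 1 µM, or the vehicle of that arm, a citric acid and NaH2PO4 solution, for 3 h or 12 h, which gives 16 groups and 56 libraries. Every comparison set a compound against the vehicle of its arm, within a line and a time. Fold changes are log2, treated minus vehicle, from edgeR's quasi-likelihood test, and a gene was called when its Benjamini-Hochberg adjusted p over all genes tested was under 0.05. The labels do not say that replicates were separate cultures, so the p-values measure the spread between these libraries.

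Mitochondria carry their own ribosome, which reads only the mRNAs of the mitochondrial genome and makes the hydrophobic core subunits of the respiratory chain and ATP synthase. Its RNA is mitochondrial, a 12S rRNA (MT-RNR1) in the small subunit and a 16S rRNA (MT-RNR2) in the large subunit, while its proteins are all nuclear products that are made on cytosolic ribosomes and imported. The protein genes lie scattered over the nuclear chromosomes, and assembly of the particle needs both genomes. The mitochondrial rRNAs are made by the mitochondrial RNA polymerase POLRMT, not by RNA polymerase I.

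Of the members, 51 encode large subunit proteins and 26 small subunit proteins. MRPS18A and MRPS30 are counted with the large subunit, where their products sit despite the letter S. The remaining member, MRPS36, encodes a part of the 2-oxoglutarate dehydrogenase complex and is kept because the rule is by symbol. The mean level of a member in the line where it was higher ran from 21.7 CPM (MRPS31) to 182.6 CPM (MRPL37). Total estimated counts were 28751758 to 41542156 per Mv4;11 library and 31010072 to 72707757 per KG-1 library. The myeloid marker CD33 averaged 73.2 to 121 CPM over the Mv4;11 groups and 81.8 to 101 CPM over the KG-1 groups, and the progenitor marker CD34 averaged 1918 to 2392 CPM in KG-1. The 10 myeloid markers summed to 1779 to 2656 CPM over the Mv4;11 libraries and 2131 to 2893 CPM over the KG-1 libraries. Their sums were separate between treated and vehicle libraries in 3 of the 8 comparisons, as given beside those. A sum does not show whether the markers moved alike, and CD34 made up most of it in KG-1. The B cell gene MS4A1 was at 0 in every KG-1 group, while KG-1 also held the lymphocyte genes NKG7 (149 to 169 CPM) and CD3D (63.2 to 70.9 CPM). The summed lymphocyte markers ran from 18.04 to 25.94 CPM over the Mv4;11 libraries and from 225 to 270.2 CPM over the KG-1 libraries, and their part in the results was not tested. One Mv4;11 12 h vehicle library of the PMR-116 arm, replicate 3, stood apart with 2607 CPM of MT-RNR1 against 336 and 365 CPM in the other vehicle libraries of its group. For the comparison of its own arm, the counts called over most gene lists are given with and without this library. The calls of the myeloid markers are given only without it. Some other counts, such as those by subunit, by overlap of groups or with a fold-change minimum, are given only with it.

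After 12 h of PMR-116, most mitochondrial ribosomal protein genes fell in Mv4;11. The 78 members summed to 3862, 3544 and 3754 CPM in the treated libraries and to 5085, 5062 and 4569 CPM in the vehicle libraries. Every treated sum lay below every vehicle sum, and the vehicle library that stands apart had the lowest sum of its group. Of the 78, 58 were called lower and 3 higher, against 22.5% of all tested genes called lower and 20.7% called higher. The median log2 fold change was -0.37 over the members and 0.0093 over all genes tested. In 60 members every treated library was below every vehicle library (25% of all genes), and in 3 every one was above (25.7%). Both subunits fell: 38 of 51 large subunit genes (median -0.38) and 19 of 26 small subunit genes (median -0.35) were lower. Without the vehicle library that stands apart, 60 members were lower and 2 higher, with a median of -0.43, and 21.7% of all genes were lower. When libraries were scaled by their totals instead, the median of all genes became 0.18 and that of the members to -0.20, with 42 members lower and 6 higher. That scaling also moved the split of all calls from 4618 lower and 4241 higher to 3203 and 6275. In bulk RNA, fewer cells of a kind and less RNA per cell cannot be told apart. The summed myeloid markers were at 1779 to 2124 CPM in the treated libraries and 2132 to 2329 CPM in the vehicle libraries, without overlap. The markers did not move alike. Without the vehicle library that stands apart, 3 of the 10 were called lower and 3 higher, with a median of -0.042. In that fit 4596 of all 21164 genes were lower and 3779 higher. The part of the markers in the result was not tested.

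**Figure D1:**
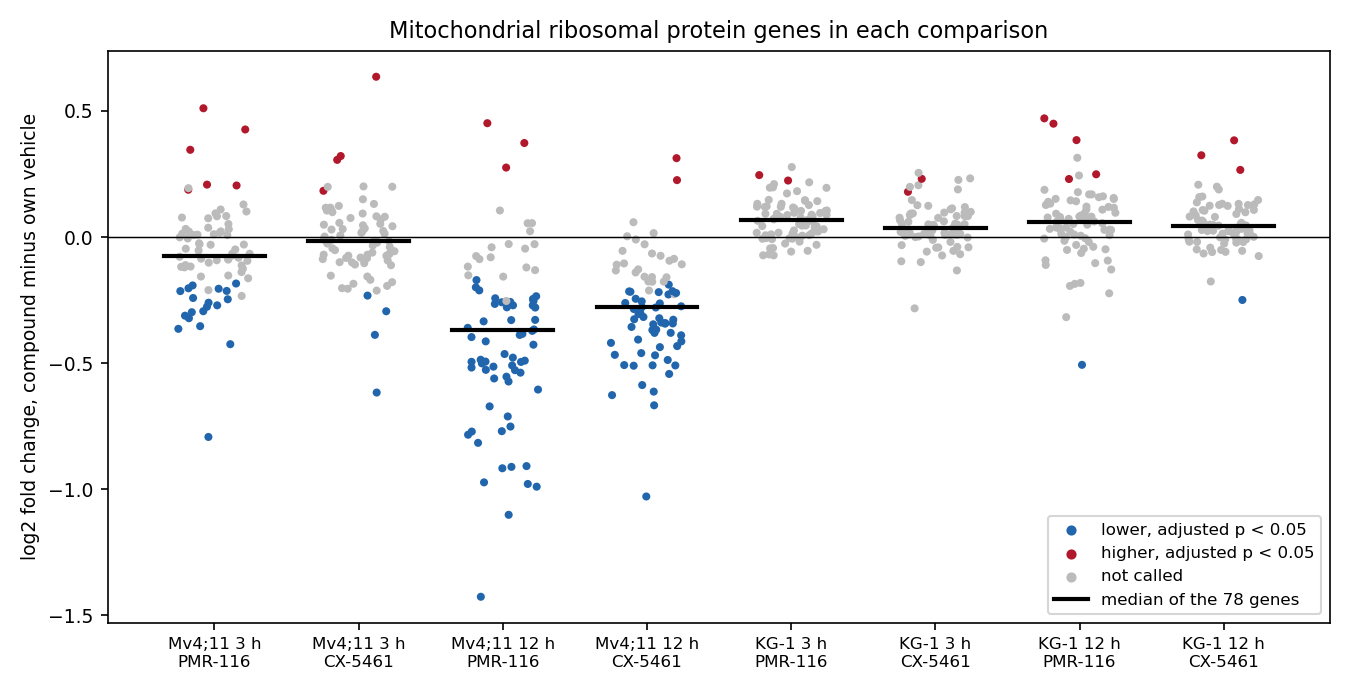
Each point is 1 of the 78 genes, with the comparison on the x axis and the log2 fold change of treated minus vehicle on the y axis; colours show the call at an adjusted p under 0.05 and black bars the median. In Mv4;11 at 12 h the medians lie at -0.37 (PMR-116) and -0.28 (CX-5461), and in KG-1 they lie between 0.034 and 0.066.

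Among large subunit genes, MRPL17 fell furthest. It encodes the homologue of bacterial L17 and was at 29.5, 27.8 and 24.7 CPM in the treated libraries and 75.2, 78.5 and 67.2 CPM in the vehicle libraries. No treated library reached the range of the vehicle libraries, and the log2 fold change was -1.43 ± 0.11 (SE, adjusted p = 9.86e-11). MRPL3, whose protein belongs to the conserved core of the subunit, stood at 108, 88.3 and 96.9 CPM in the treated libraries and 223, 213 and 192 CPM in the vehicle libraries. Its groups did not overlap either, with a log2 fold change of -1.10 ± 0.073 (SE, adjusted p = 1.25e-11). MRPL24 gave 40.1, 32.8 and 33.1 CPM in the treated libraries and 76.6, 71.1 and 63.2 CPM in the vehicle libraries, and fell by 0.99 ± 0.085 (SE, adjusted p = 1.05e-09). MRPL15, a further conserved core protein, stood at 57.9, 53.9 and 48.2 CPM in the treated libraries and 117, 106 and 90.97 CPM in the vehicle libraries, a change of -0.97 ± 0.080 (SE, adjusted p = 5.12e-10). The 4 genes share the order of their libraries in one respect: each treated value was below each vehicle value. MRPL4 (-0.77), MRPL41 (-0.52) and MRPL37 (-0.33) also fell. MRPL44 fell least of the large subunit genes called (log2 fold change -0.17 ± 0.065 SE, adjusted p = 0.0375). That call was lost without vehicle replicate 1 or 2 or treated replicate 2 (adjusted p up to 0.162), and with library totals the value was 0.0011. MRPL58, which hydrolyses peptidyl-tRNA on stalled ribosomes, gave -0.13 (adjusted p = 0.135), which did not pass the test.

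The stalk, where translation factors dock, did not move as a unit. MRPL12, the stalk protein that also binds the mitochondrial RNA polymerase, was at 64.5, 53.4 and 67.8 CPM in the treated libraries and 119, 128 and 119.8 CPM in the vehicle libraries. The groups were separate, and the log2 fold change was -0.98 ± 0.088 (SE, adjusted p = 2.09e-09). MRPL11, at the stalk base, fell by 0.55 ± 0.070 (SE, adjusted p = 4.75e-07). MRPL10, which anchors MRPL12 to the subunit, rose. It was at 69.02, 68.98 and 73.04 CPM in the treated libraries and 53.95, 56.7 and 52.4 CPM in the vehicle libraries, each treated value above each vehicle value, with a log2 fold change of 0.37 ± 0.062 (SE, adjusted p = 2.36e-05).

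Among small subunit genes the log2 fold changes ran from -0.91 to 0.28. MRPS2 was at 37.8, 32.5 and 37.7 CPM in the treated libraries and 68.9, 69.7 and 64.8 CPM in the vehicle libraries, without overlap, and fell by 0.91 ± 0.065 (SE, adjusted p = 4.63e-11). MRPS34 (-0.77), MRPS12 of the decoding site (-0.67), MRPS16 (-0.53), MRPS7 (-0.51), MRPS5 (-0.50) and MRPS15 (-0.21) were lower as well. MRPS27, which carries pentatricopeptide repeats, fell by 0.43. MRPS22 was called lower (-0.25 ± 0.086 SE, adjusted p = 0.024), and that call was lost without vehicle replicate 1 or treated replicate 2 (adjusted p up to 0.169). The 3 S18 paralogues differed in their calls. MRPS18B was lower (-0.28 ± 0.061 SE, adjusted p = 0.000554), MRPS18C was not called at -0.25 (adjusted p = 0.0706), and MRPS18A, which sits in the large subunit, was at -0.046 (adjusted p = 0.645). The difference between paralogues was not tested, and MRPS18C was called lower without vehicle replicate 1 or 3 or treated replicate 2 (adjusted p from 0.0281 to 0.04). MRPS30 of the large subunit gave -0.15 (adjusted p = 0.0873), and passed the test without treated replicate 1 (adjusted p = 0.0463). MRPS36, which is no ribosomal subunit, fell by 0.27 ± 0.10 (SE, adjusted p = 0.0375), a call lost without vehicle replicate 1 or treated replicate 2 or 3 (adjusted p up to 0.169).

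Apart from MRPL10, the members that rose at 12 h of PMR-116 were MRPL45 and MRPS6. MRPL45, whose protein lies at the exit of the nascent chain and faces the inner membrane, was at 85.3, 84.4 and 82.2 CPM in the treated libraries and 64.99, 63.7 and 55.5 CPM in the vehicle libraries. The treated libraries lay above the vehicle libraries, and the log2 fold change was 0.45 ± 0.058 (SE, adjusted p = 6.70e-07). MRPS6, a small subunit protein, was at 65.5, 70.2 and 65.5 CPM in the treated libraries and 55.4, 63.2 and 47.8 CPM in the vehicle libraries, again without overlap. Its log2 fold change of 0.28 ± 0.088 (SE, adjusted p = 0.0132) was the least stable of the 3: without treated replicate 2 it was 0.22 (adjusted p = 0.0833), and without vehicle replicate 3 it was 0.16 (adjusted p = 0.151).

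**Figure D2:**
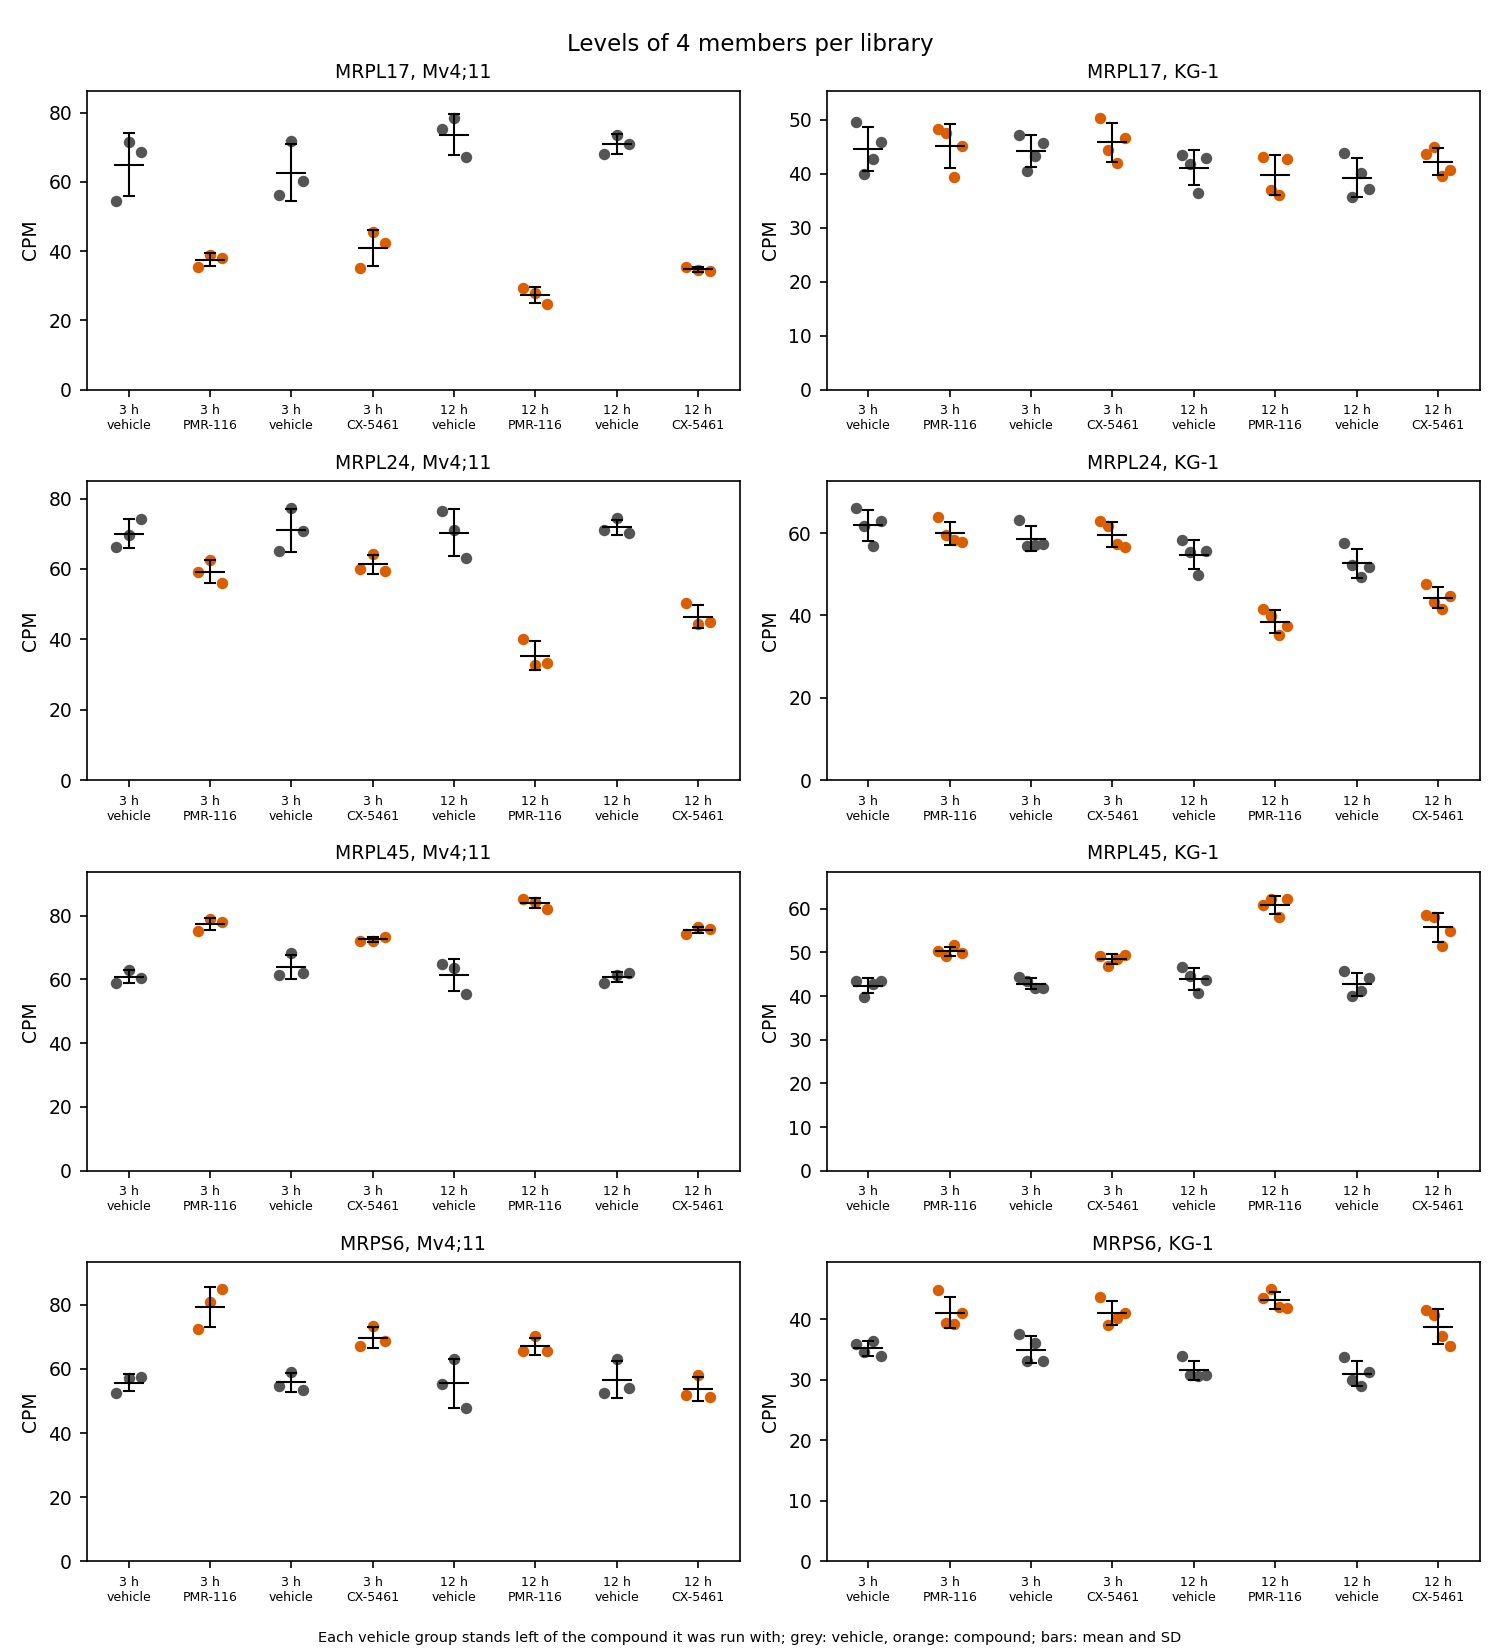
Levels of MRPL17, MRPL24, MRPL45 and MRPS6 (y axes, CPM) in each library of the 8 groups of each line (x axis), with points for libraries and bars for the mean and SD. MRPL17 separates treated from vehicle libraries in Mv4;11 and overlaps at 12 h in KG-1, while MRPL45 lies higher with PMR-116 at 12 h in both lines.

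Because so many members moved together, their start regions were read from RefSeq's table of promoters (GRCh38.p14). This table holds 250 bases before to 50 after each start. It held 85 windows for 69 of the 78 members. Runs of bases are shown for MRPL17 and MRPL3, which fell furthest, and for MRPL45 and MRPS6, which rose. Each run holds the 250 bases before the RefSeq start, 5′ to 3′ on the gene's strand. They cover chr11:6683341-6683590 (minus strand) for MRPL17, chr3:131502972-131503221 (minus strand) for MRPL3, chr17:38296918-38297167 (plus strand) for MRPL45 and chr21:34073328-34073577 (plus strand) for MRPS6. The GENCODE gene positions used further below place some starts elsewhere. There MRPS6 starts at chr21:34073224, so its whole run lies inside the gene. MRPL45 starts at chr17:38297023, so most of its run lies inside the gene too. For MRPL17 and MRPL3 most of the run lies before the GENCODE start. Capitals mark matches, on either strand, to 4 motifs: ETS (CCGGAAG), YY1 (AAGATGGCG), SP1 (GGGCGG) and the E-box (CACGTG).

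MRPL17: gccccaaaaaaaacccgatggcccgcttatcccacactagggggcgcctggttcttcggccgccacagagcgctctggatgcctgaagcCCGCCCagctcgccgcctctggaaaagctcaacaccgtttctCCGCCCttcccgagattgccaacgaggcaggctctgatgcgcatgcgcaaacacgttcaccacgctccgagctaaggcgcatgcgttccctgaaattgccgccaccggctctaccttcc
MRPL3: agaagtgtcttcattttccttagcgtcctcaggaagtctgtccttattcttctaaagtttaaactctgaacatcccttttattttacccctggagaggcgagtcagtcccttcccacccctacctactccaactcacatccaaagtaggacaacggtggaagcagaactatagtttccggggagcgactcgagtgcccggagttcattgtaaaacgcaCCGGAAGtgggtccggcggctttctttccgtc
MRPL45: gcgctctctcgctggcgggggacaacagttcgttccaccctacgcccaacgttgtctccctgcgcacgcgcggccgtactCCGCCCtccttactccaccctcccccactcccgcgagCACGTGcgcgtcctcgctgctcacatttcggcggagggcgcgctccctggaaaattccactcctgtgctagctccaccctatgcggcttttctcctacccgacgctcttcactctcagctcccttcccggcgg
MRPS6: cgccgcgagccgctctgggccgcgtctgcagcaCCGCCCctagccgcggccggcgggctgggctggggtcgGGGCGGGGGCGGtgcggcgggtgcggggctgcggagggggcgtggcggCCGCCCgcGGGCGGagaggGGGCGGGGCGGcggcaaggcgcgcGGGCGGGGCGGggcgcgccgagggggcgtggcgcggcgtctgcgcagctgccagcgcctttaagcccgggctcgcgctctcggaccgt

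The MRPL17 run holds the SP1 word at 2 places, that of MRPL3 holds the ETS word once, that of MRPL45 holds the E-box and the SP1 word once each, and that of MRPS6 holds the SP1 word at 9 places, some of them overlapping. A match before the RefSeq start was not common to all members that fell strongly at 12 h of PMR-116 in Mv4;11. The 250 bases before the RefSeq start of MRPL24 (-0.99) and of MRPL12 (-0.98) hold none of these words. By GENCODE, MRPL24 starts at chr1:156741590 on the minus strand, so these bases lie inside that gene. With the 50 bases after the RefSeq start, the window of MRPL24 holds the SP1 word and that of MRPL12 still holds none. The ETS word was in 38.8% of the members' windows (33 of 85) and 10.3% of all 35116 windows. The YY1 word was in 15.3% of the members' windows (13 of 85) and 1.75% of all 35116 windows. The SP1 word was in 60.00% of the members' windows (51 of 85) and 44.95% of all 35116 windows, and the E-box in 10.6% of the members' windows (9 of 85) and 7.26% of all 35116 windows. The table also holds windows of genes that were not tested. Of the 12209 tested genes with a window, 20.5% held the ETS word and 4.14% the YY1 word, against 43.5% and 18.8% of the 69 members. For SP1 the tested genes gave the opposite order to all windows, with the word in 72.2% of tested genes and 60.9% of the 69 members, and the E-box was in 11.9% and 13.04%. In Mv4;11 at 12 h of PMR-116 the median log2 fold change was -0.26 for the 30 members with the ETS word and -0.38 for the 39 without it. It was -0.27 for the 13 members with the YY1 word and -0.37 for the 56 without it. The other 2 words gave the same order, with -0.25 and -0.37 for the E-box and -0.265 and -0.37 for SP1. Among tested genes with a window, more of those with a word were called lower. The shares with and without it were 34.7% and 26.9% (ETS), 36.4% and 28.1% (YY1), 35.8% and 27.5% (E-box), and 30.8% and 22.4% (SP1). A match describes the letters in the window and is neither a bound site nor a cause.

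CX-5461 for 12 h also lowered most of these genes in Mv4;11. The members summed to 4220.4, 4005 and 3970.1 CPM in the treated libraries and 4897, 5084 and 4933 CPM in the vehicle libraries, without overlap. Of the 78, 52 were lower and 2 higher, where 16.5% of all genes were lower and 14.8% higher. The median was -0.28 against 0.036 over all genes, and 63 members had every treated library below every vehicle library (22.6% of all genes). Library totals gave medians of -0.20 and 0.12, with 39 members lower and 2 higher, and a split of all calls of 2591 lower to 4086 higher in place of 3388 to 3042. MRPL17 was again the furthest down, at 35.4, 34.6 and 34.1 CPM in the treated libraries and 68.02, 73.7 and 70.98 CPM in the vehicle libraries, with a log2 fold change of -1.03 ± 0.10 (SE, adjusted p = 5.40e-08). MRPL15 (-0.67), MRPL24 (-0.63), MRPL3 (-0.61) and the stalk base gene MRPL11 (-0.59) followed, each with adjusted p of 2.81e-06 or lower. In the small subunit 16 of 26 genes fell and none rose. MRPL45 was at 74.4, 76.3 and 75.9 CPM in the treated libraries and 58.9, 61.4 and 62.1 CPM in the vehicle libraries and rose by 0.31 ± 0.058 (SE, adjusted p = 0.000171). MRPL10 rose by 0.23 ± 0.062 (SE, adjusted p = 0.00657), a call lost without vehicle replicate 2 or treated replicate 3 (adjusted p up to 0.0701). MRPS6 was at -0.075 (adjusted p = 0.576). MRPL58 was called lower (-0.19 ± 0.069 SE, adjusted p = 0.0407), and lost the call without vehicle replicate 1, 2 or 3 or treated replicate 3 (adjusted p up to 0.202). Calls on MRPL41 (-0.39), MRPS16 (-0.22) and MRPS36 (-0.34) were lost without vehicle replicate 2 or treated replicate 3, with adjusted p up to 0.0824, 0.056 and 0.111, and that on MRPS27 (-0.26) without vehicle replicate 2 (adjusted p = 0.0628).

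The compounds were then compared directly, as the difference between their effects, each against its own vehicle. At 12 h in Mv4;11, 49 members were lower with both, which is 84.5% of those lower with PMR-116 and 94.2% of those lower with CX-5461. With 58 and 52 of the 78 lower, a large overlap follows from these counts alone. The share of all genes lower with both was not counted. Across the 78 members the log2 fold changes had Pearson's r = 0.90 and Spearman's rho = 0.86, a description over genes of the same libraries, and over all genes Pearson's r was 0.57. PMR-116 gave the lower value in 54 of 78 members. The difference passed the test in 7 members, all lower with PMR-116, against 3.84% of all genes. These were MRPL12 (-0.57 ± 0.12 SE, adjusted p = 0.0068), MRPL3 (-0.49 ± 0.10 SE, adjusted p = 0.00485), MRPS26 (-0.43 ± 0.12 SE, adjusted p = 0.0426), MRPL14 (-0.41), MRPS2 (-0.40), MRPS25 (-0.40) and MRPS16 (-0.31). For MRPL12 the 95% interval of the difference was -0.81 to -0.33. The count was 4 without CX-5461 vehicle replicate 1 or 3, CX-5461 replicate 1 or PMR-116 replicate 2, and 11 without PMR-116 vehicle replicate 3. DESeq2 gave 12, and a filter at a mean of 5 CPM gave 14. The difference in MRPS26 lost its call without any one of 9 of the 12 libraries (adjusted p up to 0.134). For MRPL17 the difference was -0.40, with a 95% interval of -0.69 to -0.11, and did not pass the test after adjustment (adjusted p = 0.135). For MRPL45 it was 0.14 (-0.022 to 0.30, adjusted p = 0.403), and for MRPS6 it was 0.35 (0.11 to 0.59, adjusted p = 0.116).

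**Figure D3:**
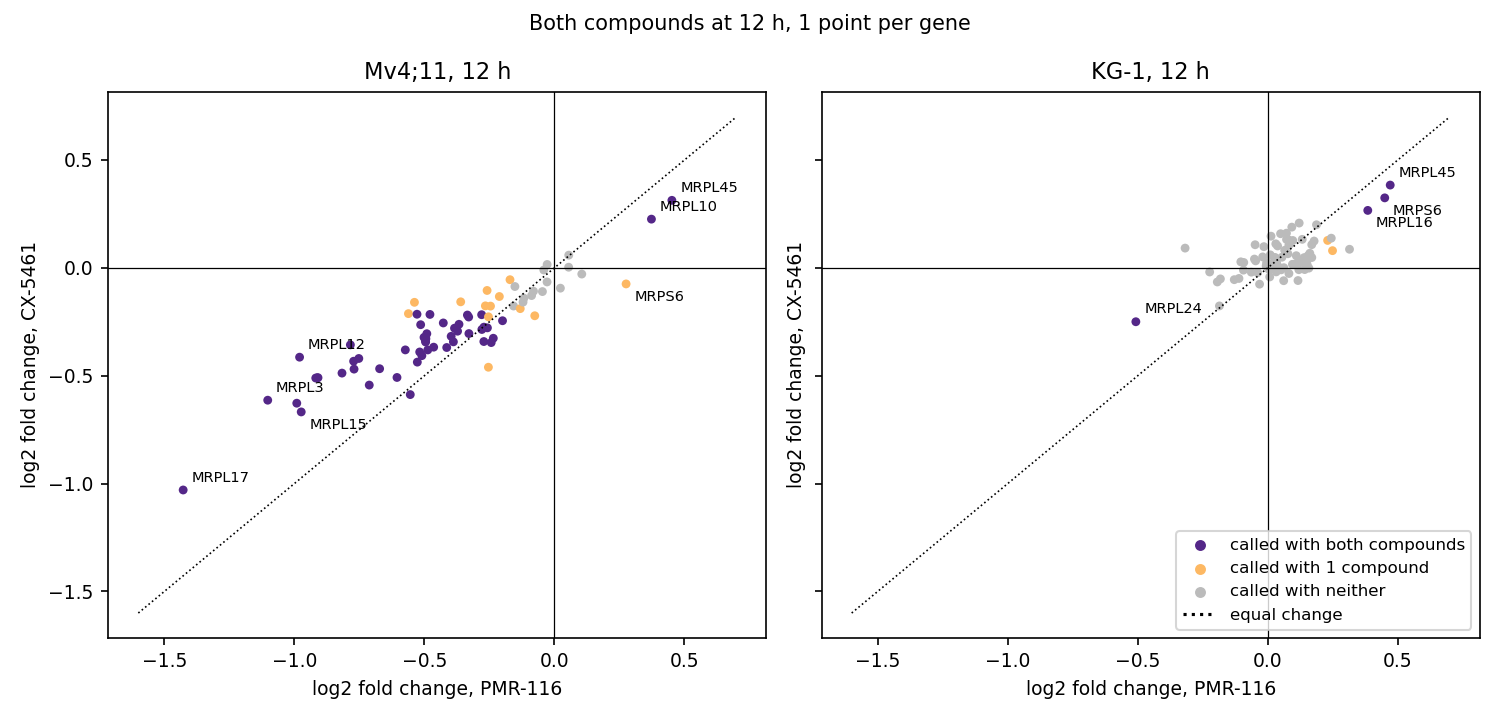
Log2 fold change with PMR-116 (x axis) against that with CX-5461 (y axis) at 12 h, 1 point per gene, for Mv4;11 and KG-1; colours show in how many of the compounds the gene was called and the dotted line marks equal change. In Mv4;11 54 of 78 genes had the lower value with PMR-116, and the genes called in KG-1 with both compounds are few.

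At 3 h in Mv4;11 the genes moved less and in both directions. PMR-116 lowered 19 members and raised 6, against 13.1% and 11% of all genes. The members summed to 4777, 4700.5 and 4679 CPM in the treated libraries and 4844, 5055 and 5076 CPM in the vehicle libraries, without overlap. The median of the members was -0.076 and that of all genes 0.0045. The count of 25 members fell to 15 without vehicle replicate 2 or treated replicate 3 and to 16 without vehicle replicate 3. It was 14 with no filter on low counts, and 14 when a log2 fold change of at least 0.25 was asked for. The summed myeloid markers were at 1994 to 2036 CPM in the treated libraries and 2253 to 2642 CPM in the vehicle libraries, without overlap, and their part in the result was not tested. MRPL17 was already separate, at 35.3, 38.9 and 38.1 CPM in the treated libraries and 54.5, 71.6 and 68.7 CPM in the vehicle libraries, a log2 fold change of -0.79 ± 0.10 (SE, adjusted p = 5.09e-06). MRPL12 (-0.43 ± 0.086 SE, adjusted p = 0.000732), MRPL20 (-0.36), MRPL15 (-0.35) and MRPL3 (-0.32) fell next. In the small subunit, MRPS2, MRPS16, MRPS18B, MRPS27 and MRPS34 were called lower at -0.18 to -0.21, and each of these calls was lost without any one of 3 to 5 of the 6 libraries (adjusted p up to 0.26). All 19 members that were lower at 3 h were also lower at 12 h of PMR-116. The members that rose were MRPS6 (0.51 ± 0.088 SE, adjusted p = 0.000125), MRPL49 (0.43 ± 0.062 SE, adjusted p = 1.59e-05), MRPL45 (0.35 ± 0.058 SE, adjusted p = 9.44e-05), MRPL2 (0.21), MRPL44 (0.20) and MRPL16 (0.19). MRPL44 lost its call without vehicle replicate 1 or 2 or treated replicate 1 or 3 (adjusted p up to 0.102). MRPL49, which encodes a protein found in mitochondrial but not bacterial ribosomes, was at 88.7, 83.8 and 88.4 CPM in the treated libraries and 63.2, 65.1 and 65.9 CPM in the vehicle libraries. Its treated libraries were all above its vehicle libraries.

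CX-5461 for 3 h lowered 4 members and raised 4, where 6.61% and 5.05% of all genes were called. These shares are near the background. The genes lowered were MRPL17 (-0.62 ± 0.10 SE, adjusted p = 0.000221), MRPL50 (-0.39), MRPL33 (-0.29 ± 0.065 SE, adjusted p = 0.00322) and MRPL32 (-0.23). Those raised were MRPL49 (0.64 ± 0.062 SE, adjusted p = 9.49e-08), MRPS6 (0.32), MRPL44 (0.31 ± 0.065 SE, adjusted p = 0.0024) and MRPL45 (0.18). MRPL49 was at 106, 97.1 and 106 CPM in the treated libraries and 65.8, 68.6 and 64.1 CPM in the vehicle libraries, without overlap. The count of 8 fell to 5 without vehicle replicate 1 or treated replicate 2 or 3. It was 13 in DESeq2, 13 with pooled vehicles and 14 with a stricter filter (a mean of 5 CPM). The calls on MRPL50 and MRPL32 were lost without vehicle replicate 1 or 2 or treated replicate 2 or 3 (adjusted p up to 0.116 and 0.228). The call on MRPS6 was lost without vehicle replicate 1 or 3 or treated replicate 2 (adjusted p up to 0.0748), and that on MRPL45 without vehicle replicate 1 or 3 or treated replicate 1, 2 or 3 (adjusted p up to 0.147). MRPS2 (-0.18) and MRPS27 (-0.19) were not called, and passed without vehicle replicate 3 (adjusted p = 0.0315) and vehicle replicate 1 (adjusted p = 0.0348). No member differed between the compounds at 3 h by edgeR's test, against 1.34% of all genes, while 7 did at an unadjusted p under 0.05 and 1 in DESeq2. The interval of the difference for MRPL17 was -0.46 to 0.11 and that for MRPL45 0.0021 to 0.32 (adjusted p = 0.695 and 0.409). MRPL17, MRPL32 and MRPL33 were the members lower in all 4 Mv4;11 comparisons.

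The change from 3 h to 12 h was tested as a difference of effects within Mv4;11. With PMR-116, 42 members were lower at 12 h than at 3 h and 1 higher, where 15.4% of all genes were lower. The 3 furthest were MRPL3 (-0.78 ± 0.10 SE, adjusted p = 2.62e-06), MRPL24 (-0.75 ± 0.12 SE, adjusted p = 3.50e-05) and MRPS2 (-0.73 ± 0.091 SE, adjusted p = 1.43e-06). MRPL10 was the one that was higher (0.26 ± 0.087 SE, adjusted p = 0.0258), and that call was lost without any one of 6 of the 12 libraries (adjusted p up to 0.115). With CX-5461, 31 members were lower at 12 h and 0 higher, against 9.15% of all genes lower, led by MRPL11 (-0.71 ± 0.10 SE, adjusted p = 1.63e-05), MRPS25 (-0.60 ± 0.087 SE, adjusted p = 2.98e-05) and MRPL27 (-0.59 ± 0.11 SE, adjusted p = 0.000524). MRPL11 is an example of a late fall, with log2 fold changes of 0.074 and 0.12 at 3 h and of -0.55 and -0.59 at 12 h.

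In KG-1 fewer members were called than in Mv4;11 with each compound at each time, in the fits without a block. With the replicate number as a block, KG-1 at 3 h of CX-5461 gave more calls than Mv4;11 did there without it. At 12 h of PMR-116 the members summed to 5092, 4847, 4334 and 4604 CPM in the treated libraries. The vehicle libraries gave 4903, 4555, 4292 and 4543 CPM. The groups overlapped, while each treated sum was above that of the vehicle library with its replicate number. Of the 78 members 1 was lower and 5 were higher, against 4.74% and 4.73% of all genes, with a median of 0.058 over the members and 0.0029 over all genes. The count of 6 was 13 (2 lower and 11 higher) with pooled vehicles and 12 (4 and 8) with a filter at a mean of 5 CPM. It was 11 (4 and 7) with library totals, 10 (3 and 7) in DESeq2 and 20 with the replicate number as a block. The one that fell was MRPL24, at 41.5, 39.97, 35.1 and 37.5 CPM in the treated libraries and 58.2, 55.3, 49.9 and 55.5 CPM in the vehicle libraries. Its groups were separate and the log2 fold change was -0.51 ± 0.063 (SE, adjusted p = 2.90e-06). MRPL45 rose from 46.6, 44.7, 40.6 and 43.8 CPM in the vehicle libraries to 60.8, 62.3, 58.03 and 62.3 CPM in the treated libraries, a log2 fold change of 0.47 ± 0.050 (SE, adjusted p = 2.63e-07). MRPS6 rose from 33.96, 30.9, 30.6 and 30.9 CPM to 43.5, 44.97, 42.1 and 41.9 CPM (0.45 ± 0.061 SE, adjusted p = 1.08e-05). In both genes each treated library was above each vehicle library. MRPL16, a conserved core protein of the large subunit, rose by 0.38 ± 0.073 (SE, adjusted p = 0.000756). MRPL13 (0.25, adjusted p = 0.00789) and MRPS30 (0.23, adjusted p = 0.047) were the others, and MRPS30 lost its call without any one of 6 of the 8 libraries (adjusted p up to 0.162). MRPL3 was not called (-0.19, adjusted p = 0.0519), and passed without treated replicate 1 or vehicle replicate 3 (adjusted p = 0.0225 and 0.0266). MRPL17 was at 43.02, 37.04, 36.04 and 42.8 CPM in the treated libraries and 43.3, 41.7, 36.3 and 42.9 CPM in the vehicle libraries, overlapping groups with a log2 fold change of -0.049 (adjusted p = 0.802).

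CX-5461 for 12 h in KG-1 called 1 member lower and 3 higher, against 1.18% and 1.36% of all genes, and the replicate number as a block gave 10 calls, 2 lower and 8 higher. The members summed to 5024, 4637, 4259 and 4475 CPM in the treated libraries and 4892, 4347, 4229 and 4281 CPM in the vehicle libraries, groups that overlapped, while each treated sum was above that of the vehicle library with its replicate number. The summed myeloid markers, mostly CD34 in this line, were at 2645 to 2893 CPM in the treated libraries. They were at 2131 to 2436 CPM in the vehicle libraries, without overlap, and their part in the result was not tested. The calls were MRPL24 (-0.25 ± 0.062 SE, adjusted p = 0.0228), MRPL45 (0.38 ± 0.050 SE, adjusted p = 3.03e-05), MRPS6 (0.32 ± 0.061 SE, adjusted p = 0.00215) and MRPL16 (0.27, adjusted p = 0.0435). MRPL24 was at 47.5, 43.2, 41.6 and 44.8 CPM in the treated libraries and 57.5, 52.1, 49.3 and 51.7 CPM in the vehicle libraries, and its call was lost without vehicle replicate 1 or treated replicate 2 or 3 (adjusted p up to 0.108). MRPL45 was at 58.7, 58.1, 51.4 and 54.95 CPM in the treated libraries and 45.6, 39.99, 41.1 and 44.2 CPM in the vehicle libraries. The count of 4 was 2 without treated replicate 2. At 3 h in KG-1 the called members were MRPL45 and MRPS6, with each compound. With PMR-116 the log2 fold changes were 0.25 ± 0.051 (SE, adjusted p = 0.00213) for MRPL45 and 0.22 ± 0.061 (SE, adjusted p = 0.0196) for MRPS6, where 3.71% of all genes were lower and 3.61% higher, and with the replicate number as a block there were 11 calls, 0 lower and 11 higher. The call on MRPS6 was lost without vehicle replicate 2 or 4 or treated replicate 1 (adjusted p up to 0.0875), which left 1 called member. With CX-5461 the values were 0.18 ± 0.051 (SE, adjusted p = 0.0432) and 0.23 ± 0.061 (SE, adjusted p = 0.0277), against 1.58% lower and 1.85% higher over all genes. The replicate number as a block gave 9 calls there. The call on MRPL45 was lost without any one of the 8 libraries (adjusted p up to 0.114) and that on MRPS6 without vehicle replicate 2 or 4 or treated replicate 1 or 4 (adjusted p up to 0.108), which left 0 or 1 called members. The medians of the members at 3 h were 0.066 and 0.034. With PMR-116 at 3 h the sums were 5452, 5119, 5153 and 5296 CPM in the treated libraries and 5284, 4807, 4928 and 5126 CPM in the vehicle libraries, again overlapping as groups and higher than the same-numbered vehicle library in 4 of 4. Pooled vehicles gave 6 called members there, and a fit of the 2 groups alone gave 1 with PMR-116 and 0 with CX-5461. No member differed between the compounds in KG-1 by edgeR's test at 3 h or 12 h, against 0.0107% and 0.0483% of all genes. At an unadjusted p under 0.05 there were 0 and 1, and DESeq2 called 0 at both times. For MRPL45 the intervals of the difference were -0.074 to 0.21 and -0.052 to 0.23, and for MRPL24 at 12 h -0.43 to -0.085 around -0.26 (adjusted p = 0.416). Between 3 h and 12 h, MRPL24 differed with PMR-116 (-0.46 ± 0.088 SE, adjusted p = 0.00415), against 1.69% of all genes, and no member did with CX-5461 by edgeR's test, against 0.263% of all genes, with 3 at an unadjusted p under 0.05 and 0 in DESeq2.

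The lines were compared in a fit of both tables together, as the effect in Mv4;11 minus the effect in KG-1. Line and batch coincide in the labels and cannot be told apart in this difference, although each effect was measured within one line and batch. At 12 h of PMR-116, 49 members were lower in Mv4;11 and 1 higher, where 13.2% of all genes were lower. The furthest were MRPL17 (-1.32 ± 0.14 SE, adjusted p = 7.26e-11), MRPL12 (-1.04 ± 0.15 SE, adjusted p = 3.70e-07) and MRPL36 (-0.93 ± 0.13 SE, adjusted p = 8.62e-08), and the one higher was MRPL10 (0.34 ± 0.10 SE, adjusted p = 0.00647), lost without KG-1 vehicle replicate 2, 3 or 4 or treated replicate 1 (adjusted p up to 0.113). At 12 h of CX-5461, 32 were lower and 0 higher, against 9.04% lower over all genes, led by MRPL17 (-1.11 ± 0.14 SE, adjusted p = 1.77e-08), MRPL14 (-0.64) and MRPL15 (-0.60). That count was 58 without KG-1 vehicle replicate 1 of the CX-5461 arm and 61 without KG-1 CX-5461 replicate 3. At 3 h, 6 members differed with PMR-116, 4 lower and 2 higher in Mv4;11, against 3.19% of all genes lower and 3.75% higher, and 2 with CX-5461, against 1.5% and 1.57%. DESeq2 gave 11 and 4, and a filter at a mean of 5 CPM gave 12 and 5. With PMR-116 these included MRPL17 (-0.76 ± 0.14 SE, adjusted p = 0.000148), MRPL32 (-0.44), MRPL36 (-0.41), MRPS6 (0.34 ± 0.11 SE, adjusted p = 0.046) and MRPL49 (0.33), and with CX-5461 they were MRPL17 (-0.63 ± 0.14 SE, adjusted p = 0.00257) and MRPL49 (0.47 ± 0.10 SE, adjusted p = 0.00449). For MRPL45 the difference at 12 h was 0.040 with PMR-116 (95% interval -0.11 to 0.19) and -0.041 with CX-5461 (-0.19 to 0.11), and it was not called.

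**Figure D4:**
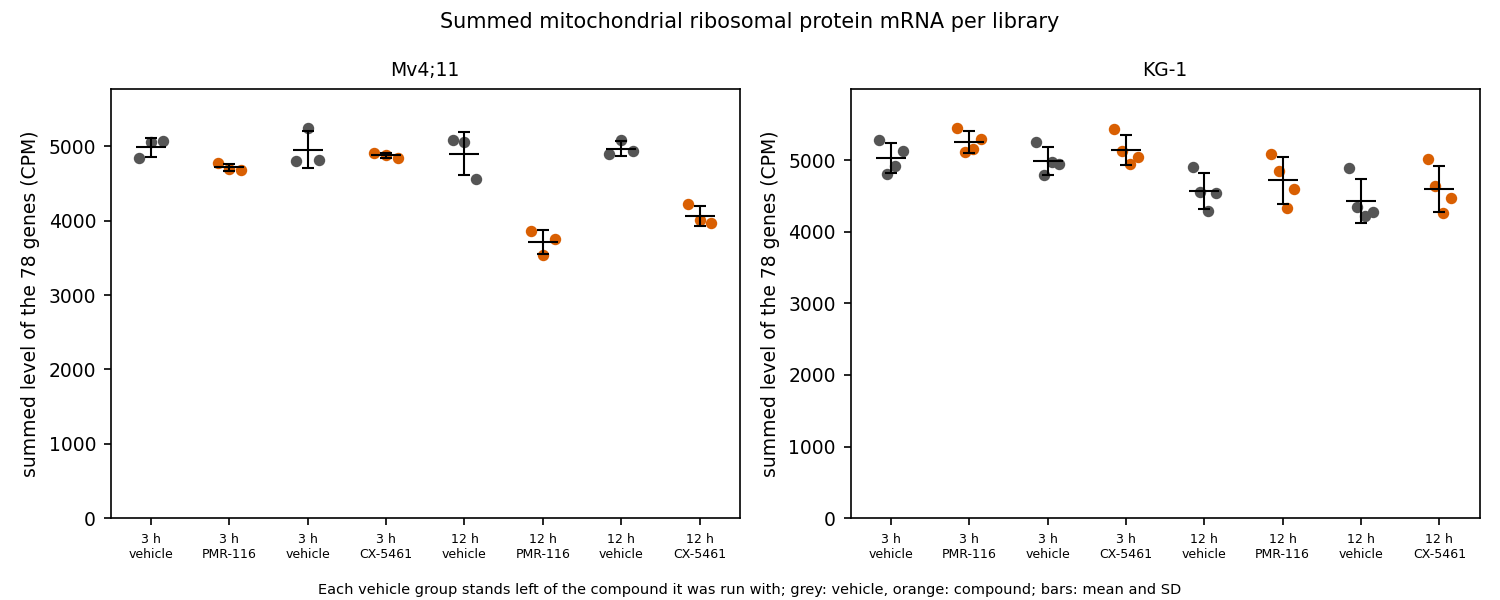
Sum of the 78 genes (y axis, CPM) in each library of the 8 groups of each line (x axis), with points for libraries and bars for the mean and SD. The 12 h treated libraries of Mv4;11 lie between 3544 and 4220 CPM, below the 12 h vehicle libraries of that line, and treated and vehicle libraries overlap as groups in KG-1.

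Across the 8 comparisons, MRPL45 was called higher in 8 and MRPS6 in 7, while 11 members were called in none: MRPL9, MRPL18, MRPL28, MRPL34, MRPL38, MRPL53, MRPS10, MRPS18A, MRPS24, MRPS31 and MRPS33. Between the vehicle libraries of the PMR-116 and CX-5461 arms edgeR's test called 0 members in either line at either time, where 0% of all genes were called, and DESeq2 called 0. At an unadjusted p under 0.05 there were 2 members at 3 h and 1 at 12 h in Mv4;11, and 2 at 3 h and 0 at 12 h in KG-1. At 12 h in KG-1 the vehicle of the PMR-116 arm was higher than that of the CX-5461 arm in 70 of 78 members, by a median of 0.044.

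Overlap of the groups was counted without any test. With PMR-116 at 3 h in Mv4;11, 27 members had every treated library below every vehicle library and 9 had every one above, against 18.1% and 17.8% of all genes. With CX-5461 at 3 h in Mv4;11, 12 members had every treated library below every vehicle library and 13 had every one above, against 14.7% and 13.4% of all genes. With PMR-116 at 12 h in Mv4;11, 60 members had every treated library below every vehicle library and 3 had every one above, against 25% and 25.7% of all genes. With CX-5461 at 12 h in Mv4;11, 63 members had every treated library below every vehicle library and 2 had every one above, against 22.6% and 23.4% of all genes. With PMR-116 at 3 h in KG-1, 0 members had every treated library below every vehicle library and 9 had every one above, against 6.23% and 7.07% of all genes. With CX-5461 at 3 h in KG-1, 0 members had every treated library below every vehicle library and 6 had every one above, against 5.08% and 5.39% of all genes. With PMR-116 at 12 h in KG-1, 2 members had every treated library below every vehicle library and 4 had every one above, against 6.48% and 6.56% of all genes. With CX-5461 at 12 h in KG-1, 1 member had every treated library below every vehicle library and 3 had every one above, against 3.64% and 3.93% of all genes.

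With a log2 fold change of at least 0.25 in size asked for beside the call, the members called lower and higher in Mv4;11 were as follows. The counts were 11 and 3 of 78 with PMR-116 at 3 h, where 11.5% and 9.74% of all genes were. They were 3 and 3 of 78 with CX-5461 at 3 h, where 5.88% and 4.51% of all genes were. The counts were 52 and 3 of 78 with PMR-116 at 12 h, where 20.4% and 19.3% of all genes were. They were 44 and 1 of 78 with CX-5461 at 12 h, where 14.3% and 13.7% of all genes were. The same counts were then taken in KG-1. In KG-1 there were 0 and 0 of 78 with PMR-116 at 3 h, where 3.19% and 2.58% of all genes were. KG-1 had 0 and 0 of 78 with CX-5461 at 3 h, where 1.3% and 1.38% of all genes were. In KG-1 there were 1 and 3 of 78 with PMR-116 at 12 h, where 3.27% and 3.48% of all genes were. KG-1 had 0 and 3 of 78 with CX-5461 at 12 h, where 0.87% and 1.04% of all genes were. Over all genes and in either direction, with no fold asked for, 7.33%, 3.44%, 9.46% and 2.54% were called in KG-1 in the same order, where 2, 2, 6 and 4 members were.

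The 16S rRNA of the mitochondrial ribosome rose where its protein genes fell. This rRNA, MT-RNR2, was at 9322, 8955 and 8531 CPM in the treated libraries and 3884, 4460.4 and 5655 CPM in the vehicle libraries after 12 h of PMR-116 in Mv4;11, and its log2 fold change was 0.94 ± 0.11 (SE, adjusted p = 1.82e-07). Without vehicle replicate 3 the change was 1.08. With CX-5461 at 12 h it was at 7178, 6864 and 7007 CPM in the treated libraries and 3915, 3919 and 4114 CPM in the vehicle libraries, a change of 0.82 ± 0.11 (SE, adjusted p = 3.10e-06). At 3 h the changes were 0.88 ± 0.11 (SE, adjusted p = 2.53e-06) with PMR-116 and 0.36 ± 0.11 (SE, adjusted p = 0.0323) with CX-5461, and the latter was lost without vehicle replicate 2 or 3 or treated replicate 1 or 3 (adjusted p up to 0.152). In KG-1, where 1 protein gene at most was called lower, MT-RNR2 also rose with PMR-116, by 0.60 ± 0.10 at 3 h (SE, adjusted p = 0.000238) and by 0.79 ± 0.10 at 12 h (SE, adjusted p = 6.01e-06). With CX-5461 in KG-1 it gave 0.17 (adjusted p = 0.44) and 0.32 (adjusted p = 0.099), which were not called. MT-RNR1, the 12S rRNA, was at 1166, 1183 and 1181 CPM in the treated libraries and 336, 365 and 2607 CPM in the vehicle libraries after 12 h of PMR-116 in Mv4;11. The treated values lay between the lower 2 vehicle libraries and vehicle replicate 3, the library that stands apart. The log2 fold change was 0.093 ± 0.42 (SE, adjusted p = 0.884) with that library and 1.73 without it (adjusted p = 2.26e-11). After 3 h with PMR-116, MT-RNR1 in Mv4;11 was at 728, 711 and 841 CPM in the treated libraries and 341, 248 and 291 CPM in the vehicle libraries, a change of 1.37 ± 0.43 (SE, adjusted p = 0.0221), and the call was lost without vehicle replicate 2 or 3 or treated replicate 3 (adjusted p up to 0.0821). In KG-1 it rose with PMR-116 at 3 h (0.66 ± 0.076 SE, adjusted p = 1.08e-06) and 12 h (0.83 ± 0.077 SE, adjusted p = 2.01e-08) and with CX-5461 at 12 h (0.33 ± 0.076 SE, adjusted p = 0.0122), the last lost without vehicle replicate 1 or treated replicate 3 (adjusted p up to 0.0604). It was not called with CX-5461 in Mv4;11 at 3 h (0.28) or 12 h (0.68 ± 0.43), nor in KG-1 at 3 h (0.12). At 12 h of CX-5461 in Mv4;11 its groups did not overlap, at 527 to 540 CPM treated and 320 to 337 CPM vehicle. All Mv4;11 groups share 1 estimate of the spread, which includes the vehicle library that stands apart. The SE of MT-RNR1 was 0.42 to 0.43 there and 0.076 to 0.077 in KG-1. Without that library, MT-RNR1 was tested only in comparisons that use its group, so the missing calls with CX-5461 do not show that MT-RNR1 was unchanged. The libraries were prepared from polyadenylated RNA, so these values count the rRNA molecules that such a preparation captures.

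**Figure D5:**
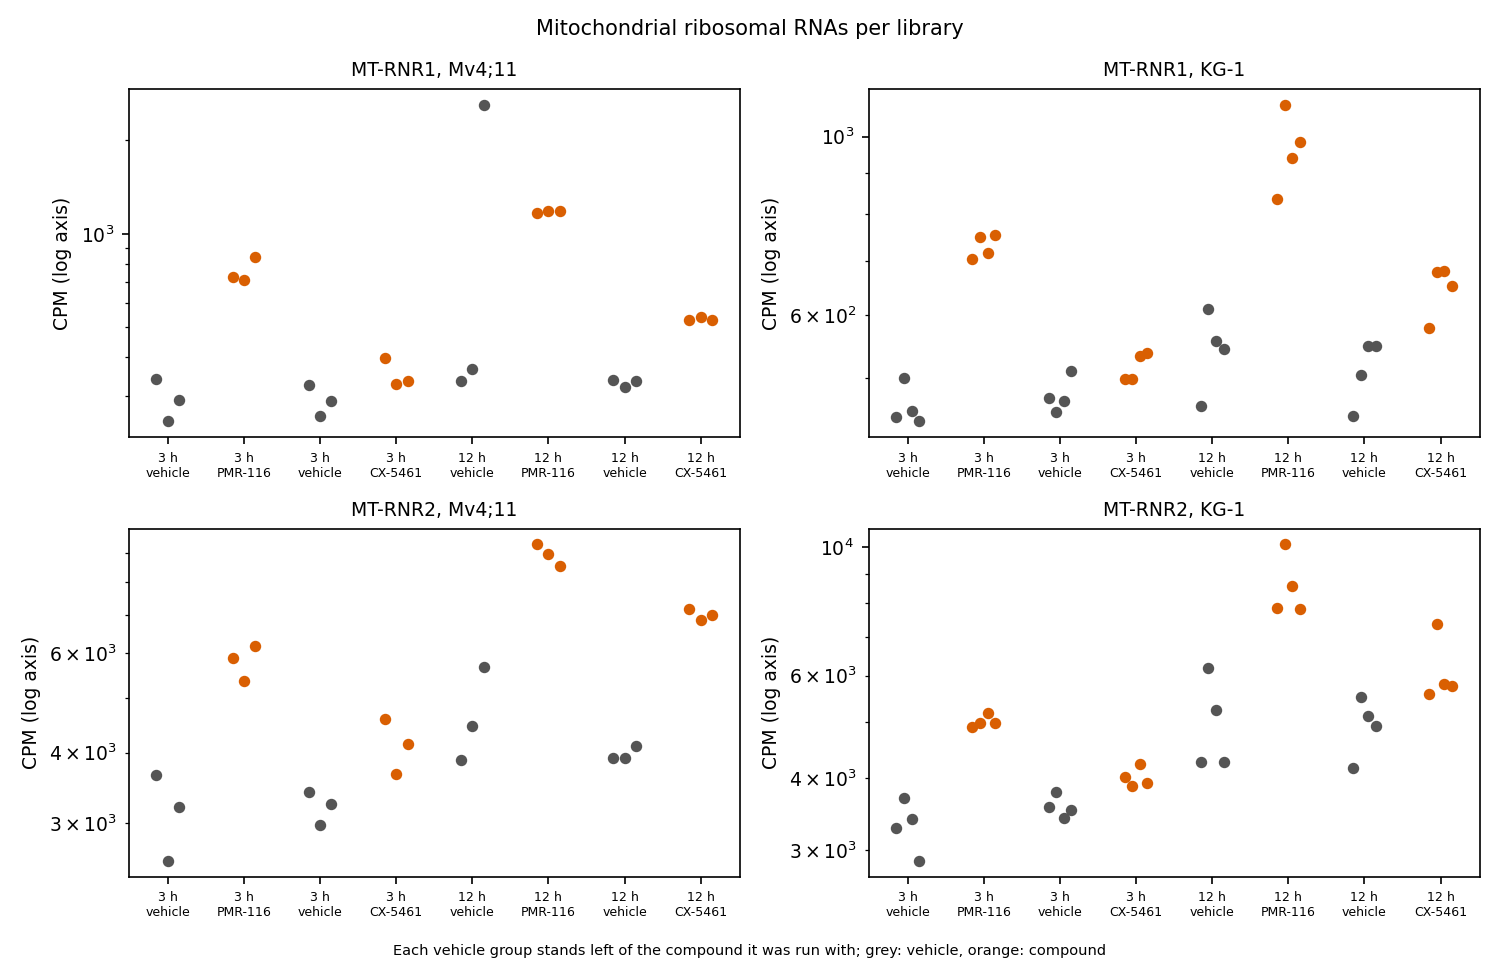
Levels of MT-RNR1 and MT-RNR2 (y axes, CPM on a log scale) in each library of the 8 groups of each line (x axis), 1 point per library. The PMR-116 libraries lie above their own vehicle libraries, apart from MT-RNR1 at 12 h in Mv4;11, where vehicle replicate 3 stands at 2607 CPM.

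The mRNAs that this ribosome reads were also lower at 12 h of PMR-116 in Mv4;11. They summed to 29106, 26864 and 24467 CPM in the treated libraries and 43607, 42611 and 34319 CPM in the vehicle libraries, and 12 of the 13 were called lower. On the strand that starts with both rRNAs the genes follow in the order MT-ND1, MT-ND2, MT-CO1, MT-CO2, MT-ATP8, MT-ATP6, MT-CO3, MT-ND3, MT-ND4L, MT-ND4, MT-ND5 and MT-CYB. In that order the log2 fold changes were 0.43, -0.34, -0.31, -0.76, -0.91, -0.91, -1.03, -0.84, -1.27, -1.25, -1.02 and -1.35. MT-ND1, next to MT-RNR2, rose, and MT-CYB, at the far end, fell furthest. MT-ND6, on the other strand, gave -1.02. Without vehicle replicate 3 the median of the 13 was -1.02 in place of -0.91, with 12 called lower and 1 higher. In KG-1 at 12 h of PMR-116 the values in the same order were 0.67, 0.24, 0.20, -0.0055, 0.0056, -0.15, -0.24, -0.28, -0.35, -0.51, -0.39 and -0.82. There MT-ND1 rose as well (adjusted p = 0.000382) and MT-CYB fell (adjusted p = 1.74e-06). The relation to gene order was read from the values and was not tested.

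Other genes of mitochondrial translation were also counted in the same 12 h PMR-116 libraries of Mv4;11. Of the 5 ribosomal proteins whose symbols do not begin with MRP, 4 fell: GADD45GIP1 (-0.71), AURKAIP1 (-0.50), CHCHD1 (-0.45) and DAP3 (-0.23), while PTCD3 gave -0.060 (adjusted p = 0.434). Of all genes tested, 22.5% were called lower and 20.7% higher in this comparison. Its counts below, with all libraries, are to be read against these shares. Enzymes that modify the mitochondrial rRNAs gave 8 lower and 1 higher of 11, with the methyltransferases MRM1 (-0.69) and TFB1M (-0.66) lower. Assembly factors gave 11 lower and 1 higher of 17, with RBFA, which binds the maturing small subunit, at -1.33 ± 0.088 (SE, adjusted p = 1.25e-11) and C1QBP at -1.23 ± 0.062 (SE, adjusted p = 1.50e-13). Translation factors and regulators gave 10 lower and 1 higher of 16, with the RNA-binding SLIRP at -1.04 and the peptide deformylase PDF at -0.84. Mitochondrial aminoacyl-tRNA synthetases gave 11 lower and 0 higher of 20, with MARS2 at -0.83. The proteins of the cytosolic ribosome gave 30 lower and 0 higher of 84, with a median of -0.11. Without the vehicle library that stands apart the counts were 4 lower and 0 higher of 5, 8 lower and 0 higher of 11, 11 lower and 0 higher of 17, 10 lower and 1 higher of 16, 13 lower and 0 higher of 20, and 47 lower and 0 higher of 84, the last with a median of -0.19, where 21.7% of all genes were lower. With CX-5461 at 12 h in Mv4;11 the counts in the same order were 3 lower and 0 higher of 5, 3 lower and 1 higher of 11, 8 lower and 0 higher of 17, 9 lower and 1 higher of 16, 9 lower and 0 higher of 20, and 17 lower and 1 higher of 84, where 16.5% of all genes were lower and 14.8% higher. The 3 of 11 and 17 of 84 are near that background. In KG-1 at 12 h of PMR-116 the cytosolic ribosomal proteins gave 27 lower and 1 higher of 83, where 4.74% of all genes were lower and 4.73% higher. None of the 5 mitochondrial proteins with other symbols was called there by edgeR's test (1, DAP3, at an unadjusted p under 0.05, also DAP3 in DESeq2).

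All 78 members were placed in GENCODE release 29 (GRCh38). Of these, 17 (21.8%) have a protein-coding gene that starts within 1000 bases and is read in the opposite direction, against 1286 of 14041 tested protein-coding genes (9.16%). The clearest pair is MRPL36 (chr5:1798386-1801366) with NDUFS6, a gene of respiratory complex I. Their GENCODE starts are 34 bases apart, and they gave -0.82 and -0.77 at 12 h of PMR-116 in Mv4;11. The RefSeq promoter window of MRPL36, chr5:1799788-1800087, lies inside the GENCODE gene, further from NDUFS6. Whether the pair meets the limit by RefSeq starts was not tested. MRPL47 (chr3:179588285-179604654) and its complex I partner NDUFB5 gave -0.25 and 0.37, and so moved in opposite directions. MRPL18 (chr6:159789812-159798436) was not called (-0.12) while its partner TCP1, a cytosolic chaperonin subunit, fell by 0.49, but MRPL18 was called lower without the vehicle library that stands apart (-0.19, adjusted p = 0.0361). Over the 15 tested partners that are not members, 5 were lower and 4 higher in that comparison, with a median of -0.098, where 22.5% of all genes were lower and 20.7% higher. These pairs were chosen after their values were seen. Exons of 13 members share bases with another gene on the same strand, for 10 of them a protein-coding gene, and 24 members overlap a gene on the opposite strand, so their counts may hold reads of the neighbour. MRPS6 (chr21:34073224-34143034) shares 176 exon bases with SLC5A3, a transporter of myo-inositol. SLC5A3 was called higher at 12 h of PMR-116 in Mv4;11 (0.39, adjusted p = 0.000935) and in none of the other 7 comparisons, where it gave 0.17, 0.054, -0.090, -0.010, -0.074, 0.024 and -0.055, while MRPS6 was called in 6 of those 7. Pseudogenes, taken as a member's symbol followed by P and a number, were held for 36 members under 79 symbols. In MRPS31 alone they made up over 10% of the summed level of gene and pseudogenes. That share was 26.7% in Mv4;11 and 35.9% in KG-1, so the value of MRPS31 is uncertain.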

How the data were processed

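RNA was extracted with a Nucleospin kit and libraries were made with Illumina Stranded mRNA Prep, per the labels' protocols. The authors deposited 1 table of estimated counts per gene symbol for each line, and Salmon 1.5.2, DESeq2 and GRCh38.p13 are named in the submitters' processing notes, without their roles. Which annotation and strand setting were used is not given in the sources used here. Of the Mv4;11 columns, 24 that match no sample were not used. Counts of genes that share sequence may be split among them.

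Estimated counts were rounded and fitted with edgeR 4.0.16 (limma 3.58.1, R 4.3.3), with TMM scaling, a filter on low counts (filterByExpr, minimum 10, total 15) and quasi-likelihood tests. One fit held the 8 groups of each line (20495 genes in Mv4;11, 18618 in KG-1), and another held all 16 groups for differences between lines (23759 genes). P-values were adjusted over all genes tested by the Benjamini-Hochberg method, and 95% intervals are normal intervals from the fitted SE. The fits were tested on simulated data with 1 fixed spread for all genes, for 12 h of PMR-116. Of 50 log2 changes of 0.25, 0 were recovered in Mv4;11 and 11 in KG-1. At 0.5, 32 and 43 of 50 were, and at 1, 50 of 50 in both. False calls were 2 (1.49% of calls) in Mv4;11 and 10 (6.10%) in KG-1, so a change of 0.25 could often be missed. Alternatives were the replicate block, library totals, DESeq2 1.42.0, other filters, pooled vehicles, 2-group fits, added pseudogenes, a fold-change minimum and leaving out single libraries.

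Members, gene lists and tests were chosen with earlier results of these data known. In each comparison with vehicle, the text names the 5 largest falls and 3 largest rises among called members of at least 10 CPM whose groups did not overlap. It also names the 3 largest called differences each way between effects, members with a known place in the ribosome, and both rRNAs. Other genes were named after their values were seen. Replicates of a group correlated at 0.991 to 0.997, and every pair differed by more than sampling noise (chi-square over its degrees of freedom at least 6.23). Same-numbered vehicle and treated libraries deviated together (every r over 0.1) in KG-1 at 3 h of PMR-116 (r from 0.142 to 0.328) and 12 h of CX-5461 (0.113 to 0.418), where the labels share only the number. In KG-1 at 12 h of PMR-116 (0.0907 to 0.365) and 3 h of CX-5461 (0.0846 to 0.316) only the lowest r is known to miss this limit. Promoter windows came from RefSeq (GRCh38.p14) and gene positions from GENCODE 29. A planned search for the NRF1 motif is not reported.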

Additional observations from a re-analysis of the deposited data

Results flagged for a closer look

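The 8 KG-1 groups of 4 libraries were each looked at for the members' sum, both rRNAs, MRPL16, MRPL24, MRPL45 and MRPS6. Of these 56 sets of values, 3 held a library far from the rest, where chance gives about 1 in 20. The 3 are near that share, and sets from the same libraries are not independent. MT-RNR2 was at 7364 CPM in CX-5461 replicate 2 at 12 h, and between 5588 and 5814 CPM in the others of that group. MRPL24 was at 63.12 CPM in vehicle replicate 1 of the CX-5461 arm at 3 h, with the others between 56.82 and 57.25 CPM. MRPS6 was at 33.96 CPM in vehicle replicate 1 of the PMR-116 arm at 12 h, with the others between 30.6 and 30.88 CPM.

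Effects that differed between times were called for 43 members with PMR-116 and 31 with CX-5461 in Mv4;11, and for 1 with PMR-116 in KG-1. As log2 differences of 12 h minus 3 h by edgeR's test, PMR-116 in Mv4;11 gave -0.7802 (adjusted p = 2.62e-06) for MRPL3, -0.7487 (adjusted p = 3.50e-05) for MRPL24, -0.7276 (adjusted p = 1.43e-06) for MRPS2 and 0.2637 (adjusted p = 0.0258) for MRPL10. CX-5461 in Mv4;11 gave -0.7108 (adjusted p = 1.63e-05) for MRPL11, -0.6024 (adjusted p = 2.98e-05) for MRPS25 and -0.5923 (adjusted p = 0.000524) for MRPL27. In KG-1, PMR-116 gave -0.462 (adjusted p = 0.00415) for MRPL24.

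Effects that differed between the lines were called for 6 members with PMR-116 and 2 with CX-5461 at 3 h, and for 50 and 32 at 12 h. As Mv4;11 minus KG-1 by the same test, 3 h of PMR-116 gave -0.7595 (adjusted p = 0.000148) for MRPL17, -0.4433 (adjusted p = 0.00567) for MRPL32, -0.4137 (adjusted p = 0.0368) for MRPL36, 0.3364 (adjusted p = 0.046) for MRPS6 and 0.3312 (adjusted p = 0.044) for MRPL49. With CX-5461 at 3 h the values were -0.6339 (adjusted p = 0.00257) for MRPL17 and 0.4658 (adjusted p = 0.00449) for MRPL49. At 12 h, PMR-116 gave -1.32 (adjusted p = 7.26e-11) for MRPL17, -1.042 (adjusted p = 3.70e-07) for MRPL12, -0.9347 (adjusted p = 8.62e-08) for MRPL36 and 0.3392 (adjusted p = 0.00647) for MRPL10. CX-5461 gave -1.108 (adjusted p = 1.77e-08) for MRPL17, -0.6429 (adjusted p = 9.55e-05) for MRPL14 and -0.597 (adjusted p = 0.000106) for MRPL15.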

How the results depend on the processing

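In both 12 h comparisons of Mv4;11 the count of called members stayed within 1.5 times and the median stayed negative in each alternative tried, with 1 choice changed at a time. The order of comparisons below is Mv4;11 3 h PMR-116, 3 h CX-5461, 12 h PMR-116 and 12 h CX-5461, then KG-1 in the same order. Leaving out each library in turn gave 15 to 23, 5 to 7, 56 to 63, 44 to 59, 1 to 3, 0 to 1, 5 to 8 and 2 to 3 called members, and medians of -0.10 to -0.063, -0.054 to 0.029, -0.43 to -0.33, -0.35 to -0.26, 0.052 to 0.085, 0.0033 to 0.063, 0.013 to 0.091 and -0.013 to 0.087. The median at 3 h of CX-5461 in Mv4;11 was positive without its vehicle replicate 2 (0.029). Between compounds the counts were 0 to 1 (3 h) and 4 to 11 (12 h) in Mv4;11, and 0 to 0 and 0 to 0 in KG-1. Between times they were 38 to 47 (PMR-116) and 23 to 38 (CX-5461) in Mv4;11, and 1 to 1 and 0 to 0 in KG-1. Between lines at 12 h they were 46 to 60 and 26 to 61, and for the line differences at 3 h single libraries were not left out. Between vehicles they were 0.

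With the replicate number as a block, KG-1 gave 11 and 9 called members at 3 h and 20 and 10 at 12 h, and 1 between compounds at 12 h, 5 and 3 between times. The 3 h line differences with the block were 15 (PMR-116) and 6 (CX-5461), and the block moved no other count of called members or median beyond its limit. Only KG-1 at 3 h of PMR-116 and 12 h of CX-5461 met the rule for a pairing, with every r over 0.1. In KG-1, 12 h of PMR-116 (mean r 0.274, lowest 0.0907) and 3 h of CX-5461 (mean 0.183, lowest 0.0846) missed it. Mv4;11 at 3 h missed it too, with means of 0.113 (PMR-116) and 0.146 (CX-5461). These means were over 0.1, so missing the rule does not show that a pairing was absent. Every library correlated best with its own number at 3 h in both lines and both compounds and at 12 h of CX-5461 in Mv4;11, but not in the other 3 comparisons, a hint from the data and not the design.

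DESeq2 gave 13 members at 3 h of CX-5461 in Mv4;11, 10 at 12 h of PMR-116 in KG-1, 1 and 12 between compounds of Mv4;11 (3 h, then 12 h), and 11 and 4 between lines at 3 h. A stricter filter (a mean of 5 CPM) gave 14, 12, 1, 14, 12 and 5 for the same results, 3 between times in KG-1 (PMR-116), and medians of -0.047, 0.0048 and -0.30 in the first 3 comparisons. No filter gave 14 members at 3 h of PMR-116 in Mv4;11, 1, 0 and 2 in KG-1 (3 h of each compound, 12 h of CX-5461), and medians of -0.039, 0.0054 and -0.29 in the same 3. Library totals gave medians of -0.030 at 3 h of PMR-116, -0.20 (PMR-116) and -0.20 (CX-5461) at 12 h in Mv4;11, 11 members at 12 h of PMR-116 and 3 between times in KG-1, and 0.0011 for MRPL44. Pooled vehicles gave 13 members at 3 h of CX-5461 in Mv4;11, 6 at 3 h and 13 at 12 h of PMR-116 in KG-1. Fits of only the 2 groups gave 1, 0 and 1 in KG-1 (3 h of each compound, 12 h of CX-5461). A fold change of at least 0.25 (log2) left 14 members at 3 h of PMR-116 in Mv4;11, and 0 and 0 at 3 h in KG-1. Adding the counts of pseudogenes, or dropping the CPM minimum, moved no count or median beyond these limits. For the reversed medians and MRPL44 the cause was not tested.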
